A study of Homo sapiens with 35 samples.

Results

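Transcripts of 4 genes that supply and activate ubiquitin were followed in myeloma cells after a short block of the proteasome. UBB and RPS27A encode ubiquitin itself, and UBA1 and UBA6 encode the enzymes that activate it. They were chosen by gene symbol among the protein-coding entries of the count table, and are 4 of 19665 such entries. All 4 were among the 17999 entries with a count in at least 1 library, which is the only filter that was applied.

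The cells were RPMI-8226, a long-established line of multiple myeloma, and their RNA was sequenced to follow how the stress of proteasome inhibition is resolved. Cells received 750 nM carfilzomib, an irreversible proteasome inhibitor, for 1 h, and were then washed and kept in medium without the drug that was renewed every 2 days. Libraries represent day 0 and days 1, 2, 4, 6, 8 and 10 after this pulse. Each of these 7 time points had 5 libraries, each from a subculture, or 35 libraries. The methods name 5 subcultures for RNA and list all days of collection, so the same subcultures may have been sampled repeatedly. The main tests treat all libraries as independent. The sample labels list carfilzomib for day 0 too, whereas the methods of the study describe collection on day 0 before the drug was added, and day 0 is treated here as the untreated state. All libraries come from a single cell line, and the methods describe the subcultures as split from 1 expanded culture, whereas a figure legend of the study speaks of independent experiments. The p-values measure the spread between these libraries, which may be technical. From day 2 onwards, collection preceded the change of medium. On day 0, density was adjusted with fresh medium before the drug was added, and it was adjusted again on days 6 and 8. No library comes from an untreated culture of a later day. Effects of the drug, medium age, cell density and time in culture therefore cannot be told apart in comparisons with day 0.

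Ubiquitin is a small protein that is joined to other proteins to mark them, most often for destruction by the proteasome. Cells never transcribe it as a single free unit. Polyubiquitin genes such as UBB encode a row of ubiquitin units joined head to tail, whereas RPS27A encodes 1 unit fused to a protein of the small ribosomal subunit, and deubiquitinating enzymes cut both precursors into free ubiquitin. An E1 enzyme then activates ubiquitin with ATP and hands it to an E2 enzyme, from which it reaches its target, usually with the help of an E3 ligase. UBA1 is the main ubiquitin E1, and UBA6 is a second one that can also activate FAT10, the product of UBD. When the proteasome is blocked, marked proteins accumulate and hold ubiquitin in conjugates, and polyubiquitin genes are known as targets of the heat shock response.

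The depth was 6519392 to 10962890 counts per library, with medians by day between 7048921 and 8479115. All 7 plasma cell markers were detected in every library, with SDC1 (CD138) at 209.6 to 362 CPM (counts scaled to library size) and XBP1 at 370 to 498 CPM. Of the 7, 5 were lower on day 1 than on day 0 (27.3% of all entries were lower), led by TNFRSF17 (BCMA, −1.93 in log2). Markers of other lineages were lower, with medians of 9.32 CPM for the B cell marker MS4A1, 2.55 CPM for the T cell marker CD3E and 0.401 CPM for the monocyte marker CD14, and the liver marker ALB had 4 counts in all libraries together. In bulk RNA, a change in the share of cells that carry a transcript and a change in its amount per cell cannot be told apart.

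The ubiquitin units in the coding sequences of the 2 ubiquitin genes are shown so that they can be compared base by base. In GRCh38 (GENCODE release 44), UBB (ENSG00000170315.14) lies on the plus strand at chr17:16380798-16382745. Its coding sequence of 687 bases is 3 ubiquitin units of 228 bases and 3 further bases, all within 1 exon. RPS27A (ENSG00000143947.15) lies on the plus strand at chr2:55231903-55235853, and its coding sequence of 468 bases is 1 ubiquitin unit, spread over 4 coding exons, and 240 bases that include the ribosomal protein. The units are written 5′ to 3′ in lower case, and capitals mark bases that differ from UBB unit 1. Their positions are chr17:16381908-16382135, chr17:16382136-16382363 and chr17:16382364-16382591 for the UBB units and chr2:55232825-55234869, introns included, for RPS27A.
UBB unit 1: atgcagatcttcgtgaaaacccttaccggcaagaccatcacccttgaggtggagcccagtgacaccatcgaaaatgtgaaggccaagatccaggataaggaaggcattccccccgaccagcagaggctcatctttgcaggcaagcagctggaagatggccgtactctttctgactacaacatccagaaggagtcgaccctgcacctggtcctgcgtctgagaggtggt
UBB unit 2: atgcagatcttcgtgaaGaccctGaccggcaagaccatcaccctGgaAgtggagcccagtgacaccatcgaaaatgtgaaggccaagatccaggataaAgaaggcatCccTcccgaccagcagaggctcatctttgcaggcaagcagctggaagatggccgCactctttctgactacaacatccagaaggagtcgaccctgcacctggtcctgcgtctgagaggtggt
UBB unit 3: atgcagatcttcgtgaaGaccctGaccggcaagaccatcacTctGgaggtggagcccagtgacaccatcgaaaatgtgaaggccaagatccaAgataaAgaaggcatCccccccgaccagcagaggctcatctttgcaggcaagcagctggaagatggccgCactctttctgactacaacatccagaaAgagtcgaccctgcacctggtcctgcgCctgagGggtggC
RPS27A ubiquitin part: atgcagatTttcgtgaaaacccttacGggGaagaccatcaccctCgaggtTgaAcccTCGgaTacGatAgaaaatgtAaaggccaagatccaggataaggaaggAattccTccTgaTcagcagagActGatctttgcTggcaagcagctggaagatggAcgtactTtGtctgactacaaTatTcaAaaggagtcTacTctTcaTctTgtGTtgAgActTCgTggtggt

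UBB units 2 and 3 matched unit 1 at 220 and 216 of 228 bases (96.5% and 94.7%), and all 8 and 12 differences fell on the third base of a codon. The RPS27A unit matched UBB unit 1 at 190 of 228 bases (83.3%), with 32 of its 38 differences on the third base of a codon and 6 elsewhere. No stretch of 31 bases was shared between any 2 of the 4 transcripts. However, 542 of the 903 stretches of that length along UBB (60.0%) and 467 of the 755 along RPS27A (61.9%) also occurred in transcripts of other annotated genes, against none of 3542 along UBA1 and 16 of 9510 along UBA6 (0.168%). UBB shared most of them with the pseudogene UBBP4 (443), and RPS27A with the pseudogene RPS27AP16 (333). In the deposited counts, UBBP4 had 77 and 38 counts over all 35 libraries in its 2 entries, against at least 982 for UBB in any 1 library. No entry under the symbol RPS27AP16 was found there. The RPS27A pseudogenes found, RPS27AP1, RPS27AP2 and RPS27AP3, had 1, 4 and 0 counts over all libraries. The values of UBB and RPS27A therefore depend on how the authors' estimation divided shared reads, whereas those of UBA1 and UBA6 depend on this little or not at all.

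UBA1 (ENSG00000130985.17) lies on the plus strand at chrX:47190861-47215128 and UBA6 (ENSG00000033178.13) on the minus strand at chr4:67612652-67701155. Their canonical transcripts have 26 and 33 exons, with coding sequences of 3174 and 3156 bases. The canonical transcript of UBA6 is longer, at 9540 bases against 3572 for UBA1, 933 for UBB and 785 for RPS27A. Levels can be compared between genes only per length, and the length of the canonical transcript was used. The transcripts expressed may differ from it in length, so the order of genes may depend on this choice. On day 0, RPS27A was highest at 1327 ± 103 CPM per kb (SD, n = 5), followed by UBB at 236 ± 23.1, UBA1 at 96.4 ± 6.57 and UBA6 at 4.29 ± 0.406 CPM per kb. RPS27A remained the highest and UBA6 the lowest on every day. UBB and UBA1 overlapped on day 1, at 175 to 240.1 and 181 to 197 CPM per kb, whereas on every other day all UBB libraries were above all UBA1 libraries.

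Compared with day 0, 2 members were higher and 2 lower on day 1 at Q ≤ 0.05 by edgeR's quasi-likelihood test with Benjamini–Hochberg adjustment. Of all entries tested, 25.4% were higher and 27.3% lower on that day. On day 2, 2 members were higher and 1 lower (23.2% and 24.4% of all entries), and on day 4, 3 were higher and 1 lower (19% and 20.1%). On days 6, 8 and 10, UBB, UBA1 and UBA6 were higher (17.5%, 18.2% and 16.1% of all entries) and RPS27A was not called (17%, 18.6% and 15.8% of all entries were lower). Calls were thus frequent among all entries, and those of the 4 members are described one by one. By edgeR and by DESeq2, both with scaled libraries, none of the 4 passed with a fold change above 2 on any day. At Q ≤ 0.05 and a fold change above 2, 20.4%, 15.3%, 9.41%, 6.71%, 8.18% and 5.93% of all entries passed by edgeR on days 1, 2, 4, 6, 8 and 10. By edgeR, 4 members had an unadjusted p under 0.05 on each of days 1, 2 and 4 and 3 on each of days 6, 8 and 10. The share of all entries under that unadjusted p was not counted, here or in any other comparison. At the stricter Q ≤ 0.05 alone, 9480, 8578, 7043, 6209, 6624 and 5745 of the 17999 entries passed on these days. All comparisons with day 0 share the same 5 day 0 libraries.

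UBB, the polyubiquitin gene, fell first and then rose to a level that stayed above day 0 until the last day. Its level was 218, 213, 192, 251 and 229 CPM in the 5 day 0 libraries (220.4 ± 21.5, mean ± SD) and 178, 163, 187, 224 and 166 CPM on day 1 (184 ± 24.5). Of the day 1 libraries, 4 were below all of day 0, while the highest lay within the day 0 range. The log2 fold change on day 1 was −0.26 ± 0.07 (SE; edgeR adjusted p = 0.00153), so that UBB fell by 16.7%.

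On day 2, UBB was at 316, 332, 306, 299.8 and 318 CPM (315 ± 12.2), with every library above every library of days 0 and 1. Between day 1 and day 2 it rose by 0.78 ± 0.07 on the log2 scale (edgeR adjusted p = 1.56e-12), where 39.6% of entries were called. Its peak was on day 4, at 456, 407, 432, 429 and 381 CPM (421 ± 28.3), which is 0.93 ± 0.07 above day 0 in log2 (edgeR adjusted p = 8.41e-15) and lies at the 90.1 percentile of the differences of all entries tested. This rise, of 91.1%, came at a time when the difference of UBA1 from day 0 had already narrowed.

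After day 4, UBB moved down, up and down again by its mean, although the upward move did not pass. It was at 311, 339, 328, 347 and 367 CPM on day 6 (339 ± 20.9), all below the day 4 libraries (log2 fold change −0.31 ± 0.07, edgeR adjusted p = 0.000965; 12.1% of entries were called). On day 8 it was at 345, 371, 403, 394 and 426 CPM (388 ± 31.1), a difference from day 6 of 0.20 ± 0.07 that did not pass (edgeR adjusted p = 0.128, unadjusted 95% interval 0.06 to 0.33). The day 6 and day 8 ranges overlapped. On day 10 it was at 301, 346, 333, 339 and 335 CPM (331 ± 17.5), lower than on day 8 by edgeR (log2 fold change −0.23 ± 0.07, adjusted p = 0.0225; background 10.1%), with 4 of 5 libraries below all of day 8. This last call was lost when 1 of 3 single libraries was left out, replicate 1 of day 10 or replicate 3 or 5 of day 8 (log2 fold change −0.20, −0.21 and −0.20). UBB on day 10 was still 0.59 ± 0.07 above day 0 in log2 (edgeR adjusted p = 4.60e-09), with all 5 libraries above all of day 0.

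**Figure D1:**
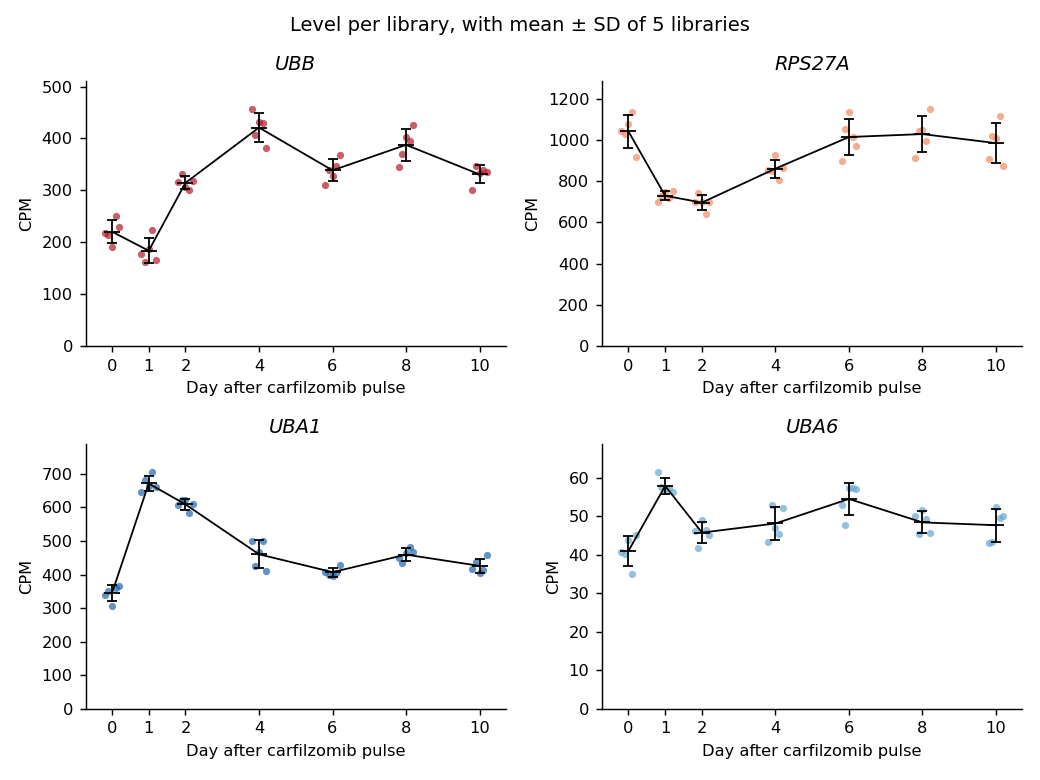
Level of each member (CPM, linear axis from 0) against the day after the carfilzomib pulse, with 1 point per library, and the mean ± SD of 5 libraries per day in black. UBB is lowest on day 1 and highest on day 4 (421 ± 28.3 CPM), RPS27A is lowest on days 1 and 2 (729 ± 21.6 and 696 ± 35.5), UBA1 is highest on day 1 (671 ± 22.5), and UBA6 varies between 41.0 ± 3.87 and 57.9 ± 2.06 CPM.

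RPS27A, the fusion of ubiquitin with a ribosomal protein, was lower on days 1, 2 and 4, and from day 6 on its difference from day 0 did not pass the test. On day 0 it was at 1045, 1030.3, 1079.6, 1136 and 917 CPM (1042 ± 80.5). On day 1 it was at 699, 729, 749, 719 and 751 CPM (729 ± 21.6) and on day 2 at 701, 742, 698, 642 and 698 CPM (696 ± 35.5). Every library of both days was below every day 0 library, and the ranges of days 1 and 2 overlapped. The log2 fold change against day 0 was −0.51 ± 0.06 on day 1 (edgeR adjusted p = 3.47e-09) and −0.58 ± 0.06 on day 2 (adjusted p = 2.21e-10), when it fell by 33.1%.

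RPS27A rose again between days 2 and 6. Day 4 libraries stood at 854, 851, 928, 805 and 866 CPM (861 ± 43.97), all above the day 2 libraries (log2 fold change 0.31 ± 0.06, edgeR adjusted p = 0.000158; background 30.6%) and with 4 of 5 below all of day 0. Day 6 libraries stood at 898, 1054, 1133, 1016 and 969 CPM (1014 ± 88.3), a further 0.24 ± 0.06 (edgeR adjusted p = 0.00850). From then on the day 0 range was shared. Levels on day 8 were 911, 1041, 1046, 996 and 1148 CPM (1029 ± 86.0) and on day 10 they were 908, 1017, 1009, 1116 and 872 CPM (985 ± 96.7). None of the differences from day 0 on days 6, 8 and 10 passed, and their 95% intervals, before adjustment, were −0.16 to 0.08, −0.14 to 0.11 and −0.20 to 0.04 in log2. Without scaling of libraries, the day 6 and day 8 differences changed sign (0.0144 and 0.0293).

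A second entry of the RPS27A symbol, made of transcripts with a retained intron, held 24.9% of the counts of that symbol. It is not part of the protein-coding values. Its level was 346 ± 47.4 CPM on day 0, against 222 ± 22.7 and 218 ± 12.05 on days 1 and 2, and 290.3 ± 26.0 and 336 ± 13.1 on days 4 and 10 (SD, n = 5). Its share of the counts of the symbol ranged only from 23.3% ± 2.05 on day 1 to 25.5% ± 1.76 on day 10 and the means of both entries were lowest on day 2. Over all genes, entries of the retained intron class held 7.15% ± 0.574 of counts on day 0 and 5.05% ± 0.462 on day 1. For the other 3 members, entries of other classes were small, with at most 2.71% of the counts of the symbol in any of them.

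RPS27A was lower on days 1, 2 and 4 together with most other genes of the small ribosomal subunit. On day 1, all 31 of the other genes of this list were lower (background 27.3% lower), with a median log2 fold change of −0.65 against −0.51 for RPS27A and −0.06 for all entries tested. They ranged from −1.10 for RPS2 to −0.28 for RPS9, and 23 of 31 had a lower value than RPS27A. On day 2, again all 31 were lower (background 24.4%, median −0.65), and on day 4, 24 were lower (background 20.1%, median −0.28, with RPS27A at −0.27). On day 8, 4 of 31 were higher (background 18.2% higher), the median was 0.06, RPS27A was at −0.02, and 2 of 31 had a lower value than RPS27A. On day 10, 4 of 31 were lower (background 15.8%), the median was −0.07, RPS27A was at −0.08, and 14 had a lower value than RPS27A. The fall of RPS27A on day 1 was thus slightly smaller than that of most of these genes, and on day 4 it was at their median.

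**Figure D2:**
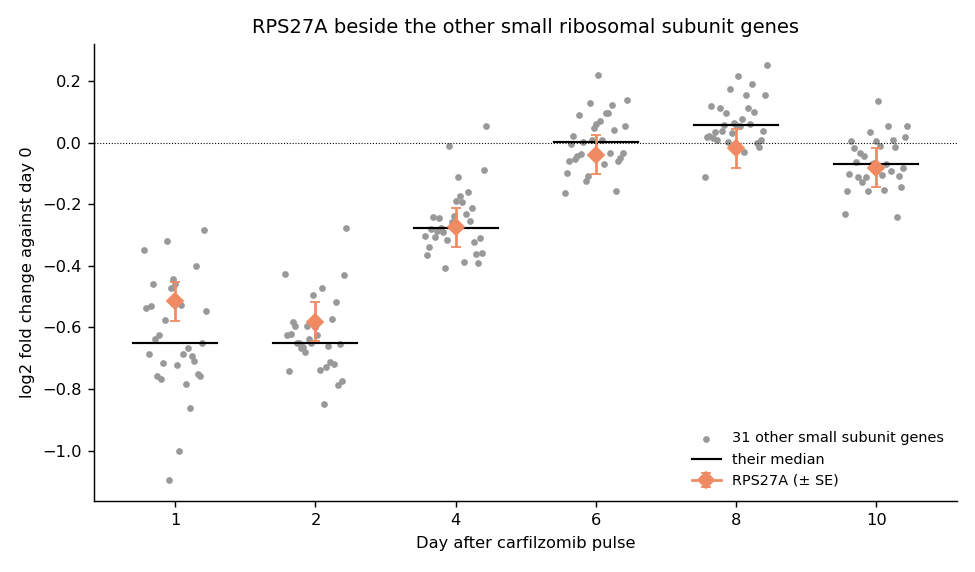
Log2 fold change against day 0 of RPS27A (orange diamond, ± SE) and of the 31 other small ribosomal subunit genes (grey points, with their median as a black line), by day. RPS27A lies within the spread of these genes on every day, from −0.51 against a median of −0.65 on day 1 to −0.08 against −0.07 on day 10.

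UBA1, the main ubiquitin-activating enzyme, was highest on day 1 and remained above day 0 on all later days. Its level was 339.9, 350.3, 306, 361 and 365 CPM on day 0 (344 ± 23.5) and 647, 681, 663, 705 and 659.7 CPM on day 1 (671 ± 22.5), with no overlap. The log2 fold change was 0.96 ± 0.05 (edgeR adjusted p = 8.57e-20), a rise of 94.9% that lies at the 87.9 percentile of the differences of all entries. On day 2 it was at 608, 622, 621, 583 and 609 CPM (609 ± 15.9), below all day 1 libraries. This step from day 1 to day 2 was small (−0.14 ± 0.05, edgeR adjusted p = 0.0224), and it did not pass without replicate 4 of day 1 or replicate 4 of day 2 (−0.12 and −0.13).

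Most of the return of UBA1 fell between days 2 and 4. On day 4 it was at 501, 425, 466, 498 and 412 CPM (460.2 ± 41.2), all below day 2 (log2 fold change −0.40 ± 0.05, edgeR adjusted p = 2.15e-08) and all above day 0. On day 6 it was at 408, 398, 395, 405 and 429 CPM (407 ± 13.5), 0.24 ± 0.05 above day 0 in log2 (edgeR adjusted p = 0.000192), the smallest of its differences from day 0. Its libraries were at 448, 434, 463, 483 and 468 CPM on day 8 (459 ± 18.6) and at 416, 437, 404, 414 and 458 CPM on day 10 (426 ± 21.6). All libraries of days 4 to 10 were above all of day 0, and on day 10 the difference was 0.31 ± 0.05 (edgeR adjusted p = 6.01e-06). The decline from day 4 to day 6 (−0.18 ± 0.05, edgeR adjusted p = 0.0150) did not pass without replicate 1 or replicate 4 of day 4 (−0.14 and −0.15).

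UBA6, the second ubiquitin E1, had fewer counts, with 175 to 436 per library against 1713 to 5804 for UBA1. It was at 40.6, 40.3, 43.8, 35.1 and 45.0 CPM on day 0 (41.0 ± 3.87) and at 61.4, 57.6, 56.7, 57.3 and 56.3 CPM on day 1 (57.9 ± 2.06). The groups did not overlap, and the log2 fold change was 0.50 ± 0.07 (edgeR adjusted p = 1.25e-07), a rise of 41.2%. On day 2 it was at 46.2, 41.8, 49.1, 46.4 and 45.1 CPM (45.7 ± 2.64), all below day 1 (−0.34 ± 0.07, edgeR adjusted p = 9.06e-05). Of these libraries, 4 were above all of day 0. The difference of UBA6 from day 0 was then 0.16 ± 0.07 and did not pass (edgeR adjusted p = 0.0710, unadjusted 95% interval 0.02 to 0.30). This difference did pass when only the libraries of days 0 and 2 were fitted (0.19) and without scaling of libraries (0.29). It also passed with the entries of all classes summed per gene (0.23).

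UBA6 was higher than day 0 on all 4 later days. Levels on day 4 were 43.2, 53.0, 47.0, 45.3 and 52.1 CPM (48.1 ± 4.28), with 4 of 5 above all of day 0. Day 6 held the second highest mean, with 53.0, 47.7, 57.2, 57.4 and 57.2 CPM (54.5 ± 4.23), all above day 0 (log2 fold change 0.41 ± 0.07, edgeR adjusted p = 1.12e-05). On day 8 they were 50.1, 45.3, 51.7, 49.3 and 45.6 CPM (48.4 ± 2.85) and on day 10 they were 43.1, 43.2, 52.5, 49.5 and 50.05 CPM (47.7 ± 4.28). On day 10, 3 of 5 libraries were above all of day 0, and the difference of 0.22 ± 0.07 (edgeR adjusted p = 0.0187) did not pass without replicate 4 of day 0 or replicate 3 of day 10 (0.18 in both cases). Between consecutive days after day 2, none of the steps of UBA6 passed.

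The order of the days differed between members. For UBB the order by mean was day 4, 8, 6, 10, 2, 0 and 1, and the only neighbours without overlap were days 2 and 0. For RPS27A, day 0 led and days 8, 6, 10 and 4 followed with overlapping ranges, and only days 4 and 1 were separated, with day 2 last. For UBA1 the order was day 1, 2, 4, 8, 10, 6 and 0, with gaps between days 1 and 2, days 2 and 4, and days 6 and 0. For UBA6 all neighbours overlapped, from day 1 to day 0 at the ends. Between days 6 and 8 none of the 4 steps passed in the main edgeR fit (background 2.56%), although 3 had an unadjusted p under 0.05. The step of UBA1 was 0.17 ± 0.05 (edgeR adjusted p = 0.0551), with all 5 day 8 libraries above all of day 6. With edgeR this step passed under a low-count filter (0.18) and without scaling of libraries (0.17), among other settings. DESeq2 called 2 members, UBA1 (0.19) and UBB (0.21), as higher.

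**Figure D3:**
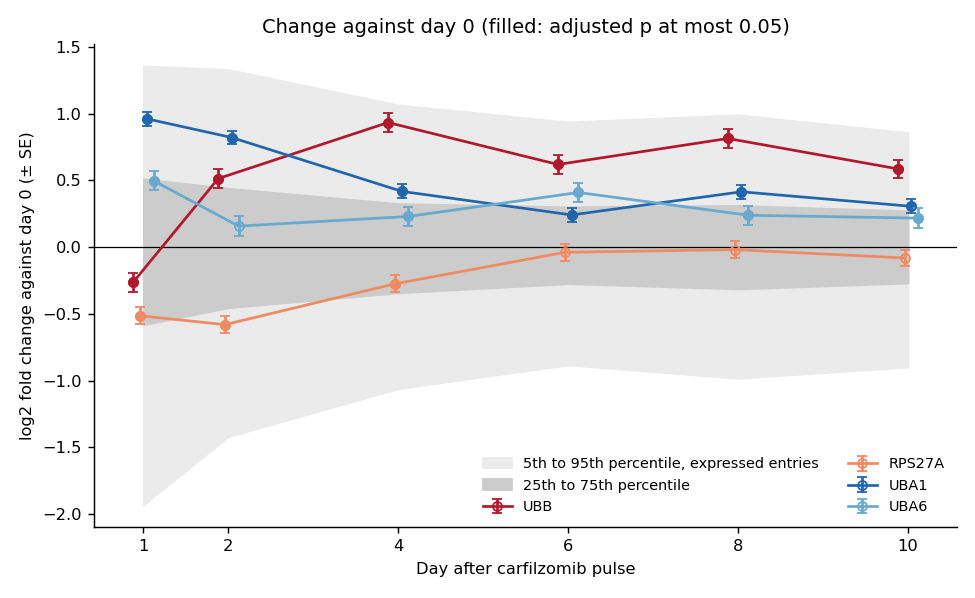
Log2 fold change against day 0 (± SE) of the 4 members by day, with filled symbols where the adjusted p was at most 0.05. Grey bands hold the middle 50% and 90% of the 12301 expressed entries. UBA1 leads on day 1 (0.96), UBB on days 4 to 10 (0.93 to 0.59), RPS27A is below 0 on days 1 to 4, and no member leaves the outer band.

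Whether the 2 members of a kind changed unequally was tested by their log2 ratio within each library, which does not depend on how libraries are scaled. For the 2 ubiquitin genes, the ratio of UBB to RPS27A was −2.26, −2.27, −2.49, −2.18 and −2.002 on day 0 (−2.24 ± 0.18) and −1.15, −1.16, −1.19, −1.10 and −1.13 on day 2 (−1.15 ± 0.03). On day 4 it was −0.91, −1.06, −1.10, −0.91 and −1.18 (−1.03 ± 0.12). All libraries of days 2 and 4 were above all of day 0, so that the balance between these transcripts moved towards the polyubiquitin gene by 1.10 and 1.21 in log2 (exact two-sided permutation test, p = 0.00794, the smallest that 5 against 5 allows; adjusted p = 0.0136 over 12 ratio tests).

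The shift was partly retained. The ratio remained above day 0 by 0.66, 0.83 and 0.67 on days 6, 8 and 10, with 5 of 5 libraries above all of day 0 each time (exact permutation test, adjusted p = 0.0136). On day 1 the difference was 0.24, with 3 of 5 libraries above all of day 0, and failed the correction (exact permutation test, p = 0.0476, adjusted p = 0.0714). On days 6 to 10, UBB differed from day 0 by 0.62, 0.81 and 0.59 and RPS27A by −0.04, −0.02 and −0.08.

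For the 2 E1 enzymes, the log2 ratio of UBA1 to UBA6 was 3.05, 3.11, 2.80, 3.35 and 3.01 on day 0 (3.06 ± 0.20). It was 3.39, 3.56, 3.54, 3.61 and 3.54 on day 1 (3.53 ± 0.08) and 3.71, 3.89, 3.65, 3.64 and 3.74 on day 2 (3.73 ± 0.10). Every library of both days was above every day 0 library, and the differences of 0.46 and 0.66 passed (exact two-sided permutation test, p = 0.00794, adjusted p = 0.0136). UBA1 therefore rose more than UBA6 on these days. From day 4 on, the differences were 0.18, −0.17, 0.17 and 0.09 on days 4, 6, 8 and 10, with adjusted p from 0.138 to 0.452 (exact permutation tests), and the ranges overlapped that of day 0.

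**Figure D4:**
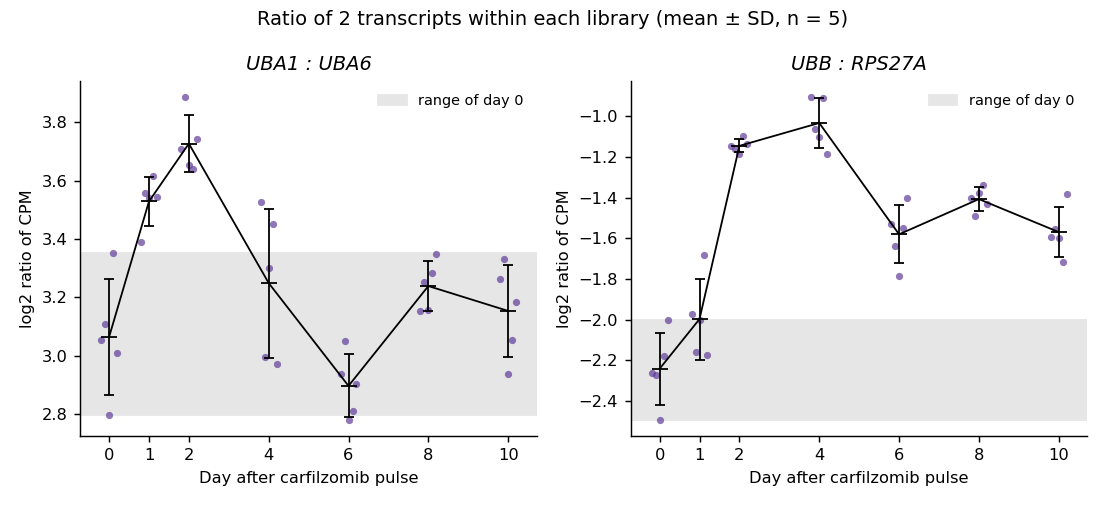
Log2 ratio of CPM of UBA1 to UBA6 (left) and of UBB to RPS27A (right) in each library, by day, with mean ± SD of 5 libraries in black and the day 0 range as a grey band. The E1 ratio lies above the band on days 1 and 2 (3.53 and 3.73 against 3.06 on day 0), and the ubiquitin gene ratio on day 2 and all later days (−1.15 on day 2 against −2.24).

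Over the 35 libraries, RPS27A and UBA1 ran in opposite directions (Pearson r = −0.84 of log2 CPM), UBA1 and UBA6 in the same (0.41), and UBB followed none of the others closely (0.28 with RPS27A, −0.21 with UBA1 and −0.15 with UBA6). These points share libraries and day means, and the values are descriptions. Among 12298 other expressed entries, those most like RPS27A included RPS6 (r = 0.976) and RPL34 (0.968), which both encode ribosomal proteins. Those most like UBA1 were FDPS (0.984), an enzyme of isoprenoid synthesis, PRDX2 (0.977), a peroxiredoxin, and TCP1 (0.974), a subunit of the TRiC chaperonin. UBB was most like ITM2C (0.955), LSP1 (0.953) and MPI (0.951), the last of which is a mannose phosphate isomerase. For UBA6 the highest values were lower, with VIPAS39 (0.813), CEP85 (0.783) and TRIP11 (0.778).

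The 8 subunits of other E1 enzymes, which activate ubiquitin-like proteins, showed no common direction. On day 1, 4 of 8 were higher and 2 lower (background 25.4% higher and 27.3% lower), with a median log2 fold change of 0.18. NAE1, a subunit of the NEDD8 E1, rose by 0.66 ± 0.06 (edgeR adjusted p = 6.71e-13), less than UBA1 and more than UBA6. UBA7, the E1 of ISG15, fell by 2.77 ± 0.32 (adjusted p = 6.63e-10) from a low level of 5.80 ± 0.436 CPM. The SUMO E1 moved in opposite directions, with SAE1 at 0.32 and UBA2 at −0.37 (edgeR adjusted p = 0.00226 and 3.80e-07). On day 10, when UBA1 and UBA6 were both higher than on day 0, none of the 8 was called by edgeR or DESeq2 (edgeR background 16.1% higher and 15.8% lower). However, 2 had an unadjusted p under 0.05 and 2 were higher without scaling of libraries.

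Of 17 ubiquitin-like modifiers, 8 were higher and 3 lower on day 1 (median 0.17, background 25.4% higher and 27.3% lower). The other 6 were not called. NEDD8, whose E1 includes NAE1, rose by 0.87 ± 0.08 (edgeR adjusted p = 2.95e-13), and SUMO3 by 0.40. Both are named here after their values were seen, and so do not stand for the list. The largest rise was that of GABARAPL1, an autophagy modifier, at 2.83 ± 0.17 (adjusted p = 7.08e-18), and the largest fall among those called was that of UFM1 at −1.18 ± 0.06 (adjusted p = 1.49e-21). On day 10, 2 were higher (background 16.1%), led by UBL5 (0.65 ± 0.08, edgeR adjusted p = 1.34e-08), and 5 lower (background 15.8%), among them ISG15 (−1.20 ± 0.16, adjusted p = 1.27e-07). UBD, which encodes the FAT10 that UBA6 can activate, had 22 counts over all 35 libraries, and no fold is given for it.

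Both partner genes of UBA6 changed on day 1, in opposite directions. UBE2Z, the E2 enzyme that takes ubiquitin from UBA6 and not from UBA1, was at 144 ± 6.89 CPM on day 0, fell slightly on day 1 (−0.16 ± 0.06, edgeR adjusted p = 0.0235, a call that was lost without scaling of libraries) and was 0.72 lower on day 2 and 0.79 ± 0.06 lower on day 10 (log2, adjusted p = 7.65e-14). BIRC6, an E2 and E3 hybrid that works with UBA6, rose on day 1 (0.53 ± 0.13, adjusted p = 0.000585), as UBA6 did, and was at −0.00 on day 10 (adjusted p = 1.00).

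Of 6 genes that recover ubiquitin from conjugates or chains, 4 were higher on day 1 (background 25.4%). The median of the list was 1.28 without UCHL1, which had 6 counts in all libraries, and 1.71 with its fitted value. PSMD14, the deubiquitinase in the lid of the proteasome, rose by 2.14 ± 0.06 (edgeR adjusted p = 1.15e-29), and USP5, which takes apart free ubiquitin chains, by 2.14 ± 0.06 from 60.9 ± 4.15 CPM. On day 2 they were still higher by 0.52 and 0.54, when UBA1 was higher by 0.82. USP14, which trims ubiquitin chains at the proteasome, rose by 1.28 on day 1 and was at −0.36 on day 4 and −0.16 on day 10 (adjusted p = 0.0273).

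All 9 tested genes of ubiquitin receptors and shuttles were higher on day 1 (background 25.4%), with a median of 1.04. SQSTM1, the autophagy receptor p62, rose most (2.22 ± 0.07, edgeR adjusted p = 4.35e-28), and was then below day 0 by 1.08 on day 2 and by 0.59 on day 10. PSMD4, a ubiquitin receptor of the proteasome, rose by 1.83 on day 1 and was still higher by 0.24 on day 10 (adjusted p = 0.000595). UBQLN2, a shuttle to the proteasome, was higher on both days (1.42 and 0.39). On day 10, 3 of 9 were higher and 1 lower (background 16.1% and 15.8%). With DESeq2, 8 of 9 were called on day 1 (9227 of all 17999 entries), DDI2 (0.13) being the lowest of the 9 by edgeR.

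Of 11 heat shock genes, 10 were higher on day 1 (median 1.54, background 25.4%), led by HSPA1A (3.34 ± 0.16, edgeR adjusted p = 4.48e-21), an HSP70 gene. Only DNAJB1 (−0.53 ± 0.07), a cochaperone of HSP70, was lower (background 27.3%). UBB, at −0.26 on that day, was lower with DNAJB1 and unlike the other 10. On day 4, 8 of the 11 were higher and 2 lower with a median of 0.30 (background 19% and 20.1%). UBB was then at its highest (0.93), above all of these genes, of which HSPB1 was the highest (0.73). On day 10, 3 were higher and 2 lower (median 0.06, background 16.1% and 15.8%), and UBB was at 0.59.

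**Figure D5:**
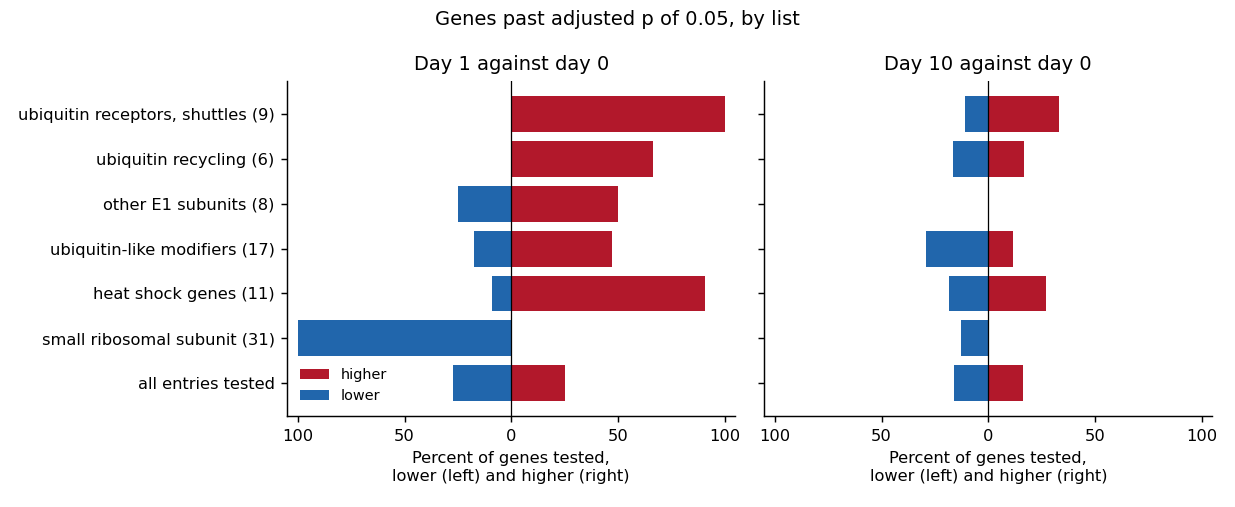
Percent of the genes of each of 6 lists that were lower (blue, to the left) or higher (red, to the right) at an adjusted p of at most 0.05 against day 0, on day 1 and on day 10, with the number of genes tested in brackets and all entries tested in the last row. On day 1, all 9 receptors and shuttles were higher and all 31 other small ribosomal subunit genes lower, whereas on day 10 the shares of the 6 lists drawn, which leave out the 2 partner genes of UBA6, were at most 33.3% in either direction.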

How the data were processed

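RNA of 35 libraries of RPMI-8226 cells (7 time points, 5 libraries each) was measured by sequencing. The authors deposited estimated counts (expected counts) per gene symbol and transcript biotype as whole numbers that are not scaled to library size. Reads had been pseudoaligned by Kallisto 0.44.0 to GENCODE transcripts (GRCh38.p12), with adjustment for GC content, and tximport, with adjustment for gene length, per their methods and processing notes. Because Kallisto divides reads between similar transcripts, values of repeated sequences carry an error of assignment that the counts do not show. No reads were realigned.

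Groups came from the labels for time point and replicate. All 17999 protein-coding entries with a count were fitted with edgeR 4.0.16 (glmQLFit and glmQLFTest, R 4.3.3) with TMM factors (0.929 to 1.08), day as the only factor, and Benjamini–Hochberg adjustment over all of them, with a call at Q ≤ 0.05. The other 1666 entries had no count. CPM divide each count by its library's size after TMM scaling, and intervals are 95% intervals from the SE of 1 gene, before adjustment. Log2 CPM and ratios used a prior count of 2. Ratios were tested by exact two-sided permutation of 252 assignments. The method was first tested on simulated data. Libraries of a day differed by more than counting error (chi-square per gene 2.48 to 9.17), and none was counted as a duplicate.

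The members and lists were chosen with earlier results of these data known, from general knowledge. Besides the members, genes were named by a rule: the highest and lowest entry of each list on days 1 and 10 with a mean log2 CPM above 0, any gene of a list of 2 to 10 genes, and the 3 entries most like each member. NEDD8, SUMO3 and UBD and the pseudogenes were named after their values were seen. Alternatives were a low-count filter, DESeq2 (1.42.0) and its RLE factors, no scaling factors, a replicate block, 2 days only, biotypes summed, other prior counts and each library left out. Sequences and positions came from GENCODE release 44 and GRCh38, while the authors used an earlier release. Some genes that these rules would name are not reported here. The files hold no batch or date.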

Additional observations from a re-analysis of the deposited data

Results flagged for a closer look

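In 28 groups of 5 libraries (4 members on 7 days), 1 library stood apart from the others of its group. UBA6 was at 61.4 CPM in replicate 1 of day 1, while the other 4 libraries of that day lay between 56.3 and 57.6 CPM. Its gap to the nearest library was 0.747 of the range of the group, above Dixon's 95% critical value for 5 libraries. Chance flags about 1 in 20 groups. All 5 libraries of day 1 were above all of day 0 for UBA6, this one included.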

How the results depend on the processing

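Of the 44 member comparisons, all kept direction and call with the replicate number as a block (UBB on day 1, −0.26). Same-numbered libraries did not deviate together (correlations −0.12 to 0.10, and 0 of 11 comparisons with every pair over 0.1). Of 30 later libraries, 8 correlated best with their own number. These values cannot tell whether same-numbered libraries came from the same subculture. The block moved no count of calls by over 1.5 times. It was not run for the ratios, where 5 pairs allow no p below 0.0625. RPS27A changed sign, uncalled, without scaling factors on day 6 (0.0144) and day 8 (0.0293) and with biotypes summed on day 8 (0.0234), as did UBA6 from day 8 to 10 with biotypes summed (0.0324). UBA6 on day 2 passed with 2 days only (0.19), biotypes summed (0.23) and no scaling factors (0.29). UBA1 from day 6 to 8 passed with biotypes summed (0.18), DESeq2 (0.19), the low-count filter (0.18), no scaling factors (0.17) and RLE factors (0.19), and UBB with DESeq2 (0.21), so that 1 member was higher there under each of these settings and 2 with DESeq2, against 0.

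With single libraries left out, sign or call varied in the following log2 differences: RPS27A on day 6 (−0.0817 to 0.00431), on day 8 (−0.0440 to 0.0374) and from day 6 to 8 (−0.00812 to 0.0723), UBA1 from day 1 to 2 (−0.16 to −0.12), 4 to 6 (−0.23 to −0.14) and 6 to 8 (0.16 to 0.20), UBA6 on day 10 (0.18 to 0.27), from day 4 to 6 (0.14 to 0.22) and from day 8 to 10 (−0.0586 to 0.0130), and UBB from day 6 to 8 (0.17 to 0.25) and 8 to 10 (−0.27 to −0.20). Members called higher then numbered 1 to 2 from day 4 to 6 and 0 to 2 from day 6 to 8, and members called lower 1 to 2 from day 1 to 2 and from day 4 to 6 and 0 to 1 from day 8 to 10. Of the ratios, UBA1 to UBA6 passed on day 6 without replicate 3 of day 0 (range −0.23 to −0.10) and on day 8 without replicate 4 of day 0 (0.11 to 0.25), and UBB to RPS27A on day 1 without replicate 5 of day 0 (0.17 to 0.30). The causes were not tested.

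Omitting scaling factors moved the median of expressed entries by 0.11, 0.13 and 0.11 on days 1, 2 and 4, and 1 member then passed a fold above 2 on day 1 and 1 on day 4, as did 1 on day 1 with biotypes summed. Among all calls, the share that was higher went from 48.7% to 59.3% on day 2, from 48.6% to 61.6% on day 4, from 50.4% to 60.4% on day 10 and from 50.5% to 29.1% between days 4 and 6. Between days 6 and 8, DESeq2 called 711 entries against 461, with 52.2% against 40.3% of them higher. Depth limits UBA6 most, at 175 to 436 counts per library. The share of UBB and RPS27A sequence found in other annotated genes may limit how exactly their reads can be assigned.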
